A study of Mus musculus with 217 samples.

Results

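Lowering of mutant huntingtin from conception was examined in the striatum of 6-month-old mice, in LacQ140_A against LacQ140. The comparison took every 6-month striatal library of both groups, 20 of the 217 libraries of the series, 10 mice a group with 5 females and 5 males each. Both groups carry a knock-in *Htt* allele with an expanded CAG repeat and lac operators in its promoter, together with a transgene for the lac repressor driven by the β-actin promoter, which is active in nearly every cell type, on a C57BL/6J background. LacQ140 mice were kept on IPTG, a sugar analogue that releases the repressor, from embryonic day 5 until they were killed, so the allele was expressed. LacQ140_A mice never received IPTG, so the allele was repressed throughout development and adult life. LacQ140_2M mice received IPTG from embryonic day 5 and had it withdrawn at 2 months. WT mice with the repressor transgene were kept without IPTG or, as WT + IPTG, with it from embryonic day 5. The fit held all 50 striatal libraries of that age, and levels are given as CPM, counts scaled to the size and composition of each library. The p-values measure the spread between these mice. IPTG was first given through the pregnant dams, and cages were kept to one sex, genotype and treatment. Effects of litter or cage therefore cannot be told apart from the group.

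Huntington's disease is caused by the repeat expansion in *Htt* and first affects the spiny projection neurons of the striatum, inhibitory cells that receive dopamine and cortical glutamate. Spiny neurons of the direct pathway carry the dopamine receptor Drd1 and those of the indirect pathway Drd2, Adora2a and enkephalin, and both relay the signal through cyclic AMP. A loss of the transcripts that set these neurons apart is the best known expression change of the disease. Bulk striatum mixes all its cell types, so fewer cells of a type and less RNA per cell cannot be told apart.

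Summed counts per library lay between 44425853 and 56224368 in LacQ140_A and between 39311796 and 58941671 in LacQ140. The share of mitochondrial counts was 6.8 to 9.99% and 6.49 to 8.88%, and the slope of log2 CPM on log2 transcript length had medians of 0.45 and 0.418. All 50 libraries matched their sex labels. The 10 spiny neuron markers were present in every library, with a summed level of 6853 to 8790 CPM in LacQ140_A, 5028 to 6450 in LacQ140, 6353 to 10010 in WT and 6125 to 9074 in WT + IPTG. Libraries F1 and M1 of LacQ140_A (the first female and the first male) stood apart by pituitary transcripts, as given below.

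*Htt* itself, which the counts read from both alleles together, ranged from 85.95 to 115.7 CPM in LacQ140 (median 99.58) and from 72.38 to 99.87 in LacQ140_A (median 87.9). The ranges overlapped, and the log2 fold change was -0.21 (SE 0.067, edgeR adjusted p = 0.075). Mean levels were 116 CPM in WT, 111 in WT + IPTG and 88.9 in LacQ140_2M, and LacQ140_A stood below WT by a log2 fold change of -0.40 (adjusted p = 0.000233). The table does not separate the mutant transcript, so the repression of the mutant allele cannot be read from it.

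For the promoters that the comparison turns on, the 250 bases before the transcription start are shown from RefSeq (GRCm38.p6), 5′ to 3′ on the strand of the gene. They are those of *Htt*, of *Gpx6* and *Scn4b*, whose transcripts rose, and of *Rarb*, the retinoic acid receptor discussed with its pathway. The *Htt* window is the reference sequence, without operators. This line holds operators on both sides of the start, and the window covers only the side before it. Capitals mark matches to the motifs searched on both strands, the cyclic AMP response element TGACGTCA, the AP-1 site TGACTCA, the TATA box TATAAA, the EGR site GCGTGGGCG, the E-box CACGTG and the DR5 element, a direct repeat bound by retinoic acid receptors.
Htt, chr5:34761490-34761739, plus strand: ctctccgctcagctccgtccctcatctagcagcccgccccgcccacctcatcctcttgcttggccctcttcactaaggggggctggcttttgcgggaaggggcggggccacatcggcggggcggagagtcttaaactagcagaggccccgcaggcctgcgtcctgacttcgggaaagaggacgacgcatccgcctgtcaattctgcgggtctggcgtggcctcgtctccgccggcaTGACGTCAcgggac
Gpx6, chr13:21311953-21312202, plus strand: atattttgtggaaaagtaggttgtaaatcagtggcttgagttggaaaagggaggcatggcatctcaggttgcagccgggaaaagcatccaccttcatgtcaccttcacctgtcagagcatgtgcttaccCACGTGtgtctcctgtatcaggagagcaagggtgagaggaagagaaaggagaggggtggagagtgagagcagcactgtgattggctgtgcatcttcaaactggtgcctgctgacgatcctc
Scn4b, chr9:45138374-45138623, plus strand: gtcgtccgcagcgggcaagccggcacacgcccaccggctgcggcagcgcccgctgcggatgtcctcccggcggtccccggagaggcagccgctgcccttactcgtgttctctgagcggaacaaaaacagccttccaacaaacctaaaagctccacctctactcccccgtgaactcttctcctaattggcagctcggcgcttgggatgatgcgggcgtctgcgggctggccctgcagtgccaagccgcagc
Rarb, chr14:16575477-16575726, minus strand: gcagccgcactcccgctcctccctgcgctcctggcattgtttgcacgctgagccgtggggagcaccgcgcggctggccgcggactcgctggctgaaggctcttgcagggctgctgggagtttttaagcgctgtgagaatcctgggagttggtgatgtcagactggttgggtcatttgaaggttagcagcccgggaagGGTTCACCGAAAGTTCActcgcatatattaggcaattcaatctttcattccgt

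The *Htt* window held a cyclic AMP response element, *Gpx6* an E-box, *Rarb* a DR5 element 53 to 37 bases before the start, and *Scn4b* none of the 6 motifs. Among genes with a mean of at least 1 CPM, 263 of 381 risen, 118 of 164 fallen and 11076 of all genes had a promoter in the RefSeq table. The cyclic AMP response element stood in 1.52% of the risen, 4.24% of the fallen and 3.04% of all these promoters, the AP-1 site in 4.56, 5.93 and 3.78%, and the TATA box in 9.89, 10.2 and 7.83%. The EGR site stood in 1.9, 0.847 and 1.2%, and the E-box in 7.22, 12.7 and 9.77%. The DR5 element stood in 1 risen, 1 fallen and 7 of all promoters. The shares of the EGR site rest on 5 risen and 1 fallen genes, those of the cyclic AMP response element on 4 and 5. Counts this small are too few to compare, and no difference in motifs was tested. The median CpG count of the window was 10 in risen, 12 in fallen and 16 in all genes.

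LacQ140_A differed from LacQ140 in 674 of 35808 tested genes (edgeR quasi-likelihood test, Benjamini-Hochberg adjusted p under 0.05 and at least a 1.2-fold change). The groups also differ in IPTG, as taken up below, so the calls cannot be put down to lowering alone. Of these 465 rose (1.3% of the genes tested) and 209 fell (0.584%), and 4308 genes had an unadjusted p under 0.05. Among the 14734 genes of at least 1 CPM, 381 rose (2.59%) and 164 fell (1.11%). Most changes were small, the median size being 0.45 in risen and 0.48 in fallen genes on the log2 scale, and 82 genes changed at least 2-fold, 56 up and 26 down. At 1 CPM or more, the 2 groups of 10 mice did not overlap at all in 94 genes (0.638%), 81 of them higher in LacQ140_A and 13 lower. The plot of fold change against p separates the many small rises from a few large ones.

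**Figure D1:**
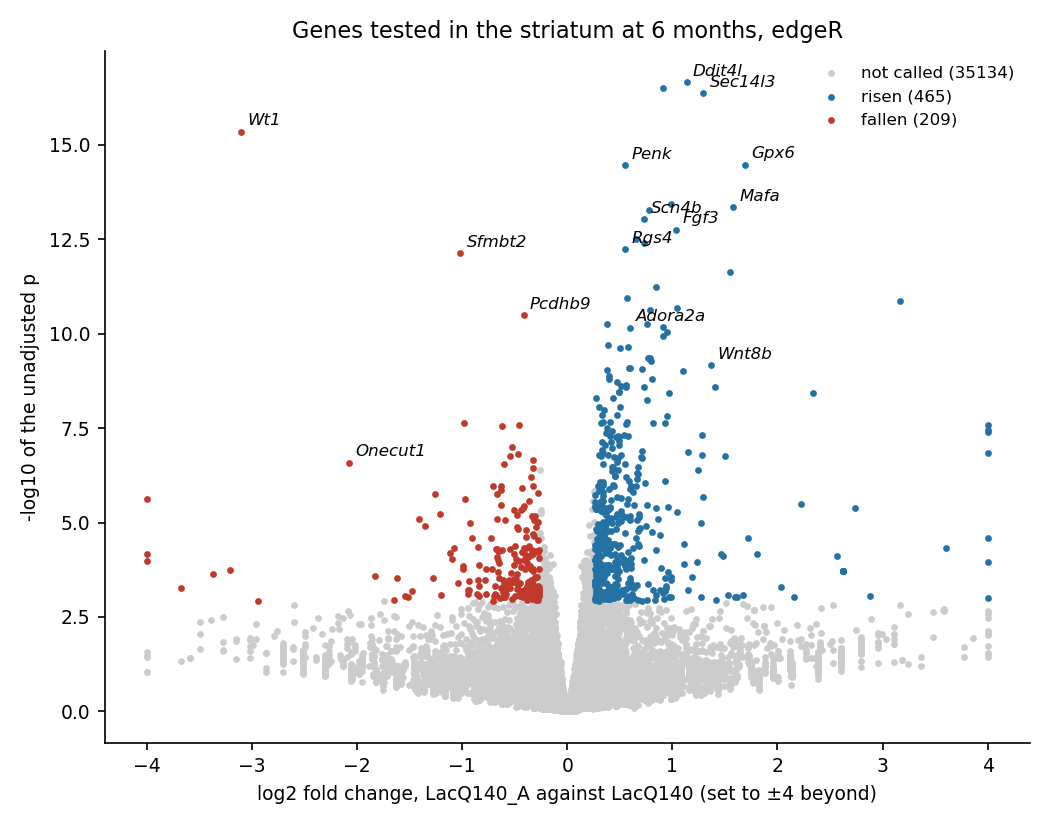
Each point is a gene tested in the 6-month striatum, by its log2 fold change of LacQ140_A against LacQ140 and -log10 of the unadjusted edgeR p; 465 risen genes are blue and 209 fallen genes red. Gpx6 and Ddit4l lie far up on the right and Wt1 far left.

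Genes that mark the striatum made up much of the rise. The striatal character of a gene was read from WT libraries, whose values enter neither side of the comparison, though they share its estimate of the spread. Of the 381 risen genes at 1 CPM or more, 178 (46.7%) were at least 2-fold higher in WT striatum than in WT cortex, against 12 of 164 fallen genes (7.32%) and 852 of all 14734 genes (5.78%). The median log2 ratio of WT striatum to cortex was 0.95 in risen, -0.13 in fallen and 0.03 in all genes. Of the 243 genes at least 4-fold higher in striatum, 88 rose (36.2%) and 3 fell (1.23%), and their median log2 fold change was 0.22. Of the 760 genes at least 2-fold higher in cortex, 9 rose (1.18%) and 22 fell (2.89%). Protein-coding genes were 86.6% of the risen, 93.9% of the fallen and 92.4% of all genes at this level, and 41 of 381 risen, 8 of 164 fallen and 798 of all 14734 genes were annotated as long noncoding RNAs. The strand setting of the counting is not given in the sources used here, so noncoding genes that overlap another gene are uncertain.

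**Figure D2:**
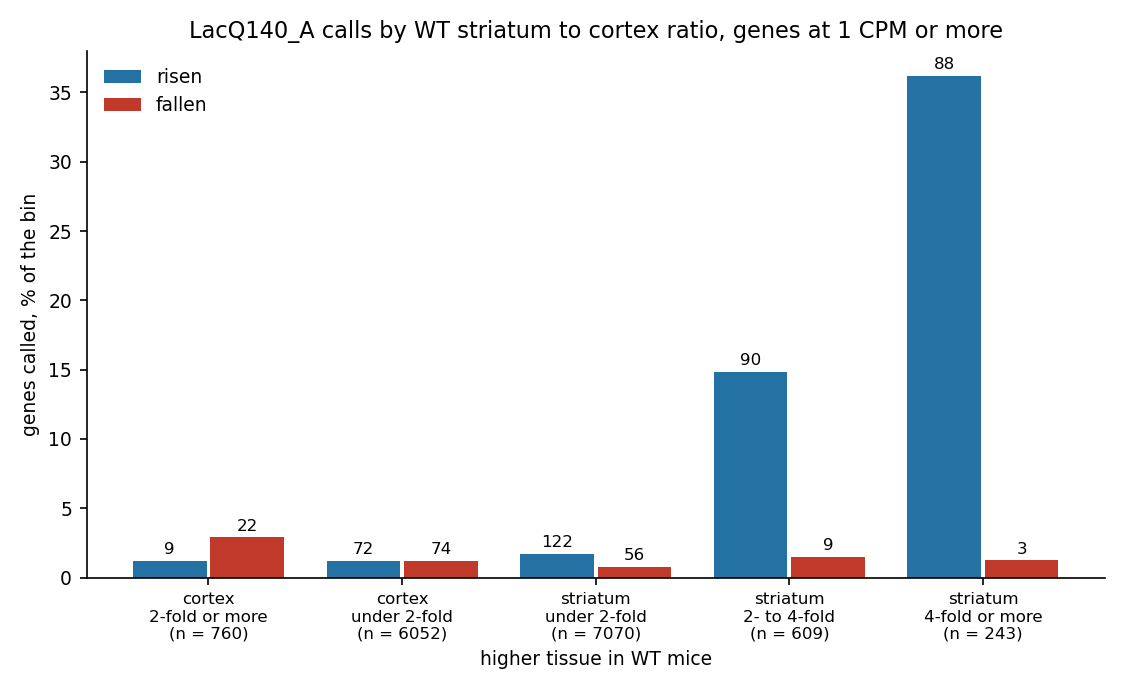
Bars give the percentage of genes at 1 CPM or more that rose (blue) or fell (red) in LacQ140_A, for genes grouped by their WT striatum to cortex ratio; numbers on the bars are gene counts. The risen share reaches 36.2% of the genes at least 4-fold higher in striatum.

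The largest rises held genes of several functions. *Gpx6*, a glutathione peroxidase, ranged from 2.12 to 3.28 CPM in LacQ140 (median 2.75) and from 4.38 to 15.6 in LacQ140_A (median 8.56), with no overlap. It differed by 1.69 on the log2 scale (SE 0.16, adjusted p = 2.05e-11), and WT mice averaged 12.2 CPM. *Mafa*, a basic leucine zipper transcription factor, rose by a log2 fold change of 1.58 (0.568 to 1.78 against 2.55 to 3.88 CPM, adjusted p = 2.03e-10). *Wnt8b*, a secreted Wnt ligand, rose by 1.37, *Sec14l3*, a lipid-binding protein, by 1.29, *Il2rb*, a chain of the interleukin-2 receptor, by 1.10 and *Fgf3*, a fibroblast growth factor, by 1.03 on the log2 scale. None of these 6 genes overlapped between the groups.

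*Ddit4l*, a brake on mTOR signalling, had the smallest adjusted p of all genes, tied with *Sec14l3* and the phosphatase gene *Ptpn7*, which was chosen after its values were seen. Its level was 6.17 to 13.9 CPM in LacQ140 (median 10.8) and 19.1 to 30.8 in LacQ140_A (median 21.9), a difference of 1.13 on the log2 scale (SE 0.096, edgeR adjusted p = 5.04e-13). The groups did not overlap, and LacQ140_A remained below WT by a log2 fold change of -0.58 (adjusted p = 0.000108). *Deptor*, another mTOR inhibitor, rose by 0.30, and these were 2 of the 18 genes listed as mTOR brakes or integrated stress response factors, with none fallen. The median of that list was 0.01, with 9 of 18 above 0, and 2.59% of all genes of at least 1 CPM rose, so the count is no result about the list. The *Deptor* call was lost in 12 of 29 alternatives, the replicate block among them, which left 1 of the 18.

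Among receptors of spiny neurons, 9 of 23 tested genes rose and 2 fell. Of all genes of at least 1 CPM 2.59% rose and 1.11% fell. The median log2 fold change of these receptors at 1 CPM or more was 0.24, against -0.01 over all genes of that level. This and the other lists were chosen with earlier results of these data known, so their counts are not independent of the data. Of genes 2- to 4-fold higher in WT striatum than cortex 14.8% rose, and of those at least 4-fold higher 36.2%. *Adora2a*, the adenosine receptor of the indirect pathway, ranged from 198 to 287 CPM in LacQ140 (median 225) and from 304 to 455 in LacQ140_A (median 365), a difference of 0.60 on the log2 scale (SE 0.076, edgeR adjusted p = 9.51e-08). *Cnr1*, the cannabinoid receptor, rose by 0.58 (96.4 to 148 against 168 to 209 CPM, adjusted p = 2.67e-07), again without overlap. *Drd2* rose by 0.49 (120 to 195 against 196 to 282 CPM, adjusted p = 6.53e-05) and *Drd1* by 0.33 (155 to 198 against 194 to 258 CPM, adjusted p = 2.97e-05). Both dopamine receptors were thus higher, *Drd1* with a small overlap of the groups. The orphan receptors *Gpr83* and *Gpr6* and the metabotropic glutamate receptor *Grm3* rose by 0.29 to 0.41. The serotonin receptor *Htr2c* fell by 0.39 and the orphan receptor *Gpr149* by 0.27 on the log2 scale.

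Of 14 neuropeptide genes 1 rose and none fell, against 2.59% risen among all genes of at least 1 CPM, and their median log2 fold change was -0.14, with 5 of the 13 at that level above 0. The risen gene was *Penk*, the enkephalin precursor of indirect pathway neurons, which went from 967 to 1157 CPM in LacQ140 (median 1038) to 1420 to 1767 in LacQ140_A (median 1486). The difference was 0.55 on the log2 scale (SE 0.053, adjusted p = 2.05e-11), with no overlap. LacQ140_A stayed below WT, which averaged 1876 CPM, by a log2 fold change of -0.29 (adjusted p = 0.001). *Tac1* and *Pdyn*, the tachykinin and dynorphin precursors of direct pathway neurons, had log2 fold changes of -0.16 (adjusted p = 0.249) and 0.09 (adjusted p = 0.688).

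Of the 32 genes of the cascade below these receptors 12 rose and none fell, against 2.59% risen among all genes of at least 1 CPM. The median log2 fold change of the cascade was 0.20. Rises were common in genes higher in WT striatum as a whole (14.8% at 2- to 4-fold, 36.2% at 4-fold or more), not in this cascade alone. *Rgs4*, a regulator of G protein signalling, went from 408 to 622 CPM in LacQ140 to 689 to 910 in LacQ140_A (log2 fold change 0.55, SE 0.061, adjusted p = 1.50e-09). *Pde10a*, the phosphodiesterase that limits cyclic nucleotides in spiny neurons, went from 548 to 924 CPM (median 774) to 855 to 1145 (median 1088), a log2 fold change of 0.48 (adjusted p = 2.24e-05) with overlapping ranges. *Adcy5*, the main adenylyl cyclase of spiny neurons, rose by 0.47 without overlap (673 to 972 against 1032 to 1277 CPM, adjusted p = 2.24e-05). *Pde1b*, *Arpp21*, *Arpp19* and *Rgs9* rose by 0.38 to 0.49, each without overlap, and *Ppp3ca*, *Rgs14*, *Ppp1r1a* and *Ppp1ca* by 0.27 to 0.44. *Ppp1r1b*, which encodes the dopamine-regulated phosphatase inhibitor DARPP-32, rose by 0.30 (1621 to 2220 against 1910 to 3308 CPM, adjusted p = 0.0409). Its call was lost when any of several single libraries was left out, and its adjusted p reached 0.148 over the alternatives.

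Of the 15 regulators of small G proteins, *Rasgrp2*, *Arhgap10* and *Rasd2* rose by 0.28 to 0.29, with overlapping groups, against the same 2.59% risen. That count fell to 1 without LacQ140_A F4 and to 0 without both LacQ140_A F4 and LacQ140 F5, a pair chosen after seeing the data.

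Ion channels and calcium handling also rose in part. *Scn4b*, a sodium channel beta subunit abundant in spiny neurons, ranged from 702 to 1123 CPM in LacQ140 (median 935) and from 1353 to 1806 in LacQ140_A (median 1523), a difference of 0.73 on the log2 scale (SE 0.077, edgeR adjusted p = 3.36e-10). The groups did not overlap, and WT averaged 1623 CPM. The potassium channel genes *Kcnh4*, *Kcnip2*, *Kcnab1* and *Kcnk2* rose by 0.26 to 0.48, so that 5 of 40 sodium and potassium channel genes rose and none fell, against 2.59% risen and 1.11% fallen among all genes of at least 1 CPM. The *Kcnk2* call was lost in 12 of 29 alternatives, where its change came under the 1.2-fold bound, and the *Kcnab1* call without LacQ140 F4. Of 36 calcium signalling genes 8 rose and none fell, against the same shares. *Ryr1*, a calcium release channel of the endoplasmic reticulum, rose from 10.3 to 22.5 CPM in LacQ140 (median 15.4) to 24 to 43.3 in LacQ140_A (median 31), a difference of 1.04 on the log2 scale (SE 0.13, edgeR adjusted p = 3.77e-08). *Pcp4*, a calmodulin regulator, rose by 0.44, the IP3 receptor *Itpr1* by 0.37, the kinase *Camkk2* by 0.33 and the calcium sensor *Hpca* by 0.32.

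Lists of synaptic genes held 1 or 2 risen genes each, where 2.59% of all genes of at least 1 CPM rose. The postsynaptic scaffold gene *Shank3* rose by 0.33 (adjusted p = 0.0246), as 1 of 27 glutamate receptor and scaffold genes, and *Gabrd*, the delta subunit of the GABA-A receptor, rose by 0.35 (117 to 136 against 139 to 192 CPM, adjusted p = 6.32e-06), as 1 of 20 GABA genes. The presynaptic genes *Unc13a* and *Syt2* rose by 0.30 and 0.32, as 2 of 30. The calls of *Shank3*, *Unc13a* and *Syt2* were each lost when single libraries were left out.

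Of 15 genes of retinoic acid handling 4 rose and none fell, against 2.59% risen among all genes of at least 1 CPM, and their median log2 fold change was 0.23. None of the 15 passed the genotype by IPTG test described below, which at 0.542% of all genes passing is no result about the list. Higher in WT than in WT + IPTG were 2 of the 15, where 0.584% of all genes were called in either direction. *Rxrg*, a retinoid X receptor, went from 83.8 to 120 CPM in LacQ140 (median 107) to 117 to 178 in LacQ140_A (median 154), a difference of 0.49 on the log2 scale (SE 0.081, edgeR adjusted p = 3.48e-05). *Rarb*, whose promoter window holds the DR5 element shown above, went from 71 to 91.6 CPM to 93.7 to 110, a difference of 0.34 on the log2 scale (SE 0.063, edgeR adjusted p = 0.000366) without overlap. *Dhrs3*, a retinaldehyde reductase, and *Rbp4*, the retinol carrier, rose by 0.33 and 0.37. *Rarb* was 1 of the 2 that differed between WT and WT + IPTG.

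**Figure D3:**
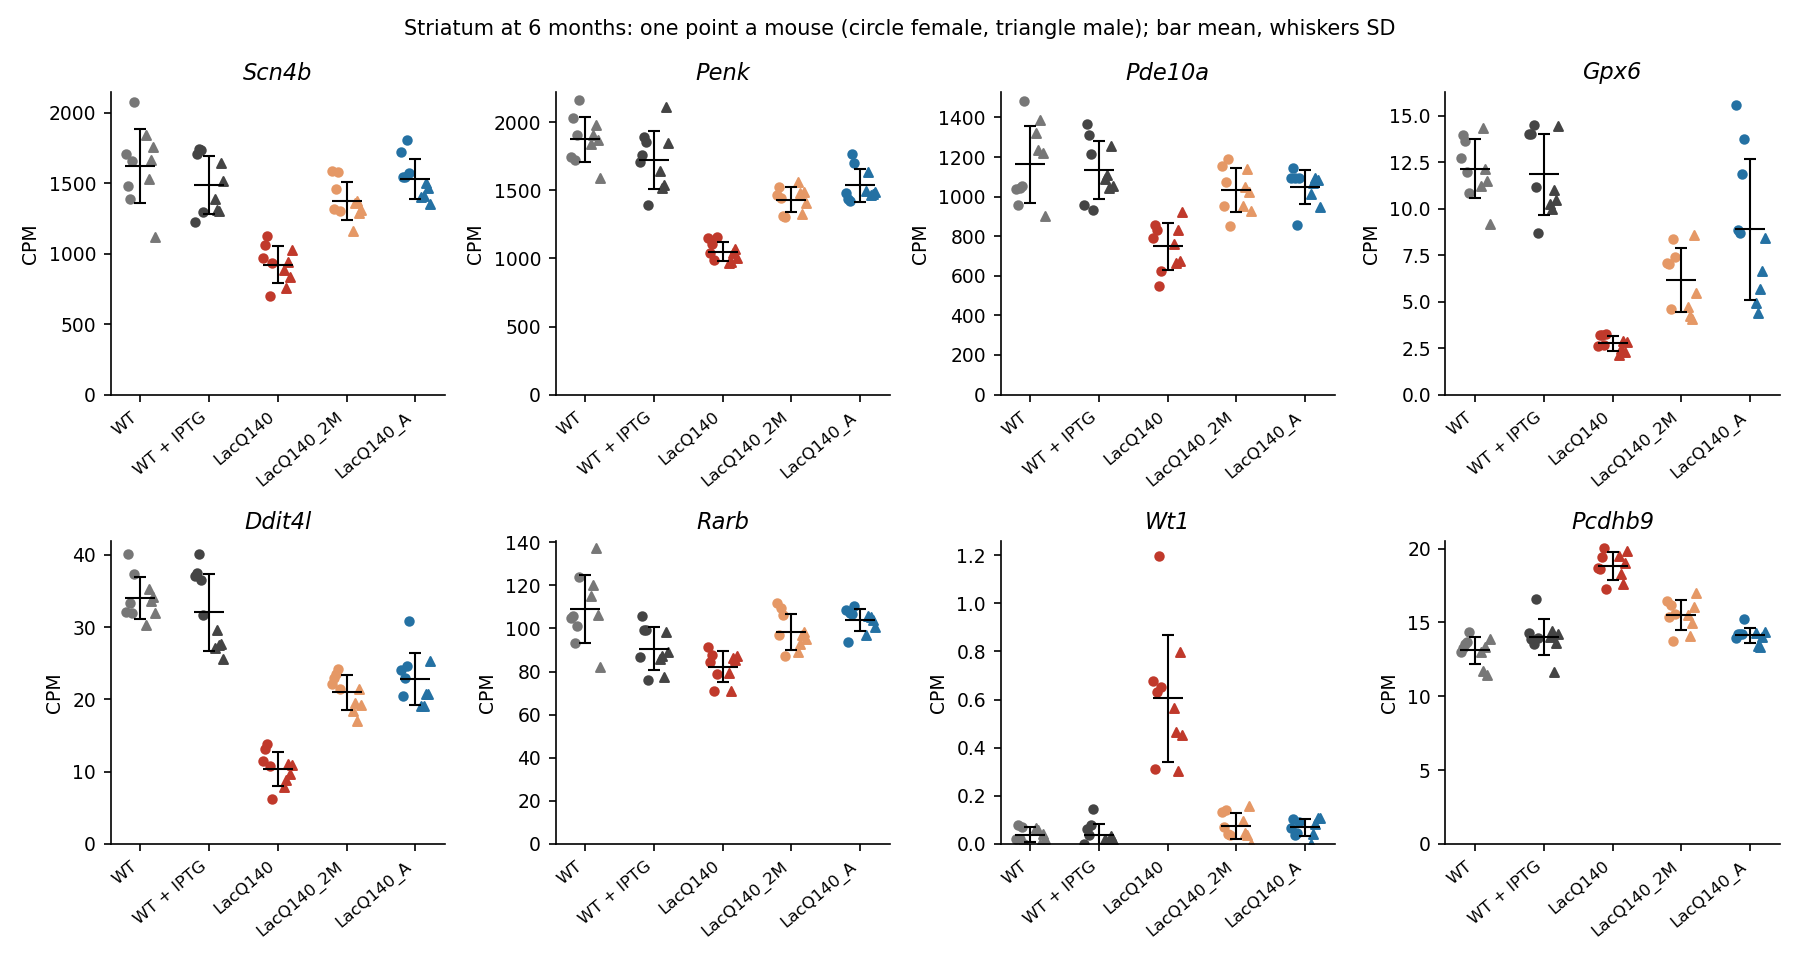
CPM of 8 genes in the 6-month striatum, 1 point a mouse (circles female, triangles male), with the mean and SD of each group of 10. In Scn4b, Penk, Gpx6, Ddit4l and Rarb every LacQ140_A mouse lies above every LacQ140 mouse, in Wt1 and Pcdhb9 every one lies below, and in Pde10a the ranges overlap.

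*Wt1*, a zinc finger transcription factor of the developing kidney and gonad, ranged from 0.301 to 1.2 CPM in LacQ140 (median 0.597) and from 0 to 0.109 in LacQ140_A (median 0.0733), a difference of -3.10 on the log2 scale (SE 0.30, edgeR adjusted p = 4.00e-12). The groups did not overlap, and WT and WT + IPTG averaged 0.0381 and 0.0388 CPM. *Onecut1*, a transcription factor of liver and pancreas, fell by 2.07 on the log2 scale from a mean of 0.289 CPM, and these were the 2 fallen genes of 60 developmental regulators. *Hoxa7* fell by 1.35 from 0.229 CPM, as 1 of 24 Hox genes tested. *Sfmbt2*, a Polycomb group protein, ranged from 3.13 to 5.21 CPM in LacQ140 and from 1.02 to 2.47 in LacQ140_A, with a difference of -1.02 on the log2 scale (SE 0.11, edgeR adjusted p = 1.74e-09) and no overlap. *Cbx8*, a chromatin reader of Polycomb complex 1, fell by 0.54 (adjusted p = 5.92e-05), with overlapping groups. Of 28 listed Polycomb genes, which do not include *Sfmbt2*, 2 fell and 26 were not called, with a median of -0.05. *Wt1*, *Onecut1* and *Hoxa7* lie below 1 CPM. With 0.584% of all tested genes fallen, 1 or 2 calls in lists of this size are no result about the lists.

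Clustered protocadherins, adhesion proteins by which neurons tell their own branches from others, fell in 7 of 57 genes, with none risen, against 1.11% fallen among all genes of at least 1 CPM. Their median log2 fold change was -0.12, against -0.01 over all genes of that level. *Pcdhb9* ranged from 17.3 to 20.1 CPM in LacQ140 (median 18.9) and from 13.4 to 15.2 in LacQ140_A (median 14.2), a difference of -0.41 on the log2 scale (SE 0.051, edgeR adjusted p = 5.34e-08) without overlap. *Pcdhb13*, *Pcdhb16*, *Pcdhb5*, *Pcdhb3*, *Pcdhb22* and *Pcdhga2* fell by 0.27 to 0.35 with overlapping ranges, and the calls of *Pcdhb5* and *Pcdhga2* were lost in 4 and 7 of 29 alternatives. The count was 5 without LacQ140_A F4 and 4 without LacQ140_A F4 and LacQ140 F5. The members of a cluster are near copies of each other and share exons in part, so reads could be split between them.

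Among the largest falls were 4 genes with a known link to cilia or ependyma, grouped after their values were seen and not as a list. *Cdhr3* ranged from 1.85 to 3.73 CPM in LacQ140 (median 2.6) and from 0.683 to 1.93 in LacQ140_A (median 1.35), a difference of -0.98 on the log2 scale (SE 0.15, edgeR adjusted p = 1.22e-05). *Hydin*, a protein of the ciliary central pair, fell by 0.84 (adjusted p = 0.0275), *Tmem212*, an ependymal gene, by 0.79 (adjusted p = 0.0214) and *Ak7*, an adenylate kinase of cilia, by 0.72 (adjusted p = 0.0033). The groups overlapped in all 4 genes, and the calls of *Hydin* and *Tmem212* were lost without some single libraries, LacQ140 F1 among them. The 10 markers of choroid plexus and ependyma summed to 41.9 to 81.9 CPM in LacQ140_A (median 54.7) and 47.2 to 113 in LacQ140 (median 71.2). All 6 of these markers with at least 1 CPM had a log2 fold change below 0, from -0.79 to -0.09 with a median of -0.38, the ependymal regulator *Foxj1* having -0.13 (adjusted p = 0.699). *Tmem212* was the 1 called marker of the 10, and 2 were called without LacQ140_A F4 and LacQ140 F5. With 1.11% fallen among all genes of at least 1 CPM, 1 or 2 calls in a list of 10 are no result about it. The part of ependyma or choroid plexus in these falls was not tested.

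Other large falls were *Gm47512*, an antisense transcript (-1.26), *AC087559.2* on an unplaced scaffold (-1.27), *Npcd* (-0.99), *Gm41442* (-0.77) and *Teddm2* (-0.70), all with overlapping groups. The calls of *AC087559.2*, *Gm41442* and *Npcd* were lost in 4, 2 and 1 of 29 alternatives, DESeq2 among them for *AC087559.2*. *Avp*, the vasopressin precursor, fell by 1.62 (adjusted p = 0.02), but LacQ140 M2 held 8.37 CPM against at most 2.34 in the other LacQ140 mice, and without that library its adjusted p was 0.209. *Maff*, a small Maf transcription factor, fell by 0.71 (adjusted p = 0.0496) with 13.5 CPM in LacQ140 F5, and its call was lost in 18 of 29 alternatives, DESeq2 among them. *Stmn2*, a regulator of neuronal microtubules, fell by 0.31 without overlap (145 to 199 against 120 to 144 CPM, edgeR adjusted p = 0.00308). It was the 1 fallen gene of 19 for the axonal cytoskeleton, where 1.11% of all genes of at least 1 CPM fell. That count is no result about the list, in which 13 of 18 genes at 1 CPM or more lay above 0 (median 0.04).

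Several other lists held few or no called genes, which at shares of 2.59% risen and 1.11% fallen among all genes of at least 1 CPM is not a result about these lists. None of the 29 transcription factors of striatal neurons was called by edgeR or DESeq2, while 10 had an unadjusted p under 0.05, and *Dlx6*, with the smallest p among them, had a log2 fold change of 0.23 (adjusted p = 0.00712), under the 1.2-fold bound. Neither tool called any of 27 immediate early genes, 94 genes of oxidative phosphorylation, 39 proteasome subunits, 17 endoplasmic reticulum chaperones, 18 ion pumps and exchangers or 14 genes of DNA mismatch repair and other modifiers of repeat tracts, where an unadjusted p under 0.05 was found in 4, 2, 3, 3, 6 and 3 genes. Of the immediate early genes *Egr2* had the smallest p (log2 fold change 0.75, adjusted p = 0.0773) and was called in 3 of 29 alternatives, and 1 of the 27 rose without LacQ140_A F1 and M1. *Pms2*, a mismatch repair protein, had a log2 fold change of -0.18 (adjusted p = 0.0683). At 1 CPM or more, 15 of 88 oxidative phosphorylation, 4 of 37 proteasome and 2 of 14 mismatch repair genes lay above 0. Their medians were -0.04, -0.06 and -0.05. Of immediate early genes 19 of 26 lay above 0, of pumps and exchangers 12 of 18 and of chaperones 9 of 17. Shifts of whole lists were not tested. Among 18 clock genes *Npas2* rose by 0.28 and *Cry1* fell by 0.27, and the cold-inducible *Rbm3* was the 1 fallen gene of 19 for heat and cold (-0.37, adjusted p = 0.0229). Over 29 alternatives the call of *Cry1* was lost in 16 (adjusted p up to 0.205), of *Rbm3* in 4 and of *Npas2* in 1. Of 30 neurotrophin and growth factor genes *Fgfr2* rose by 0.27 (adjusted p = 0.0333), a call lost in 12 of 29 alternatives.

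**Figure D4:**
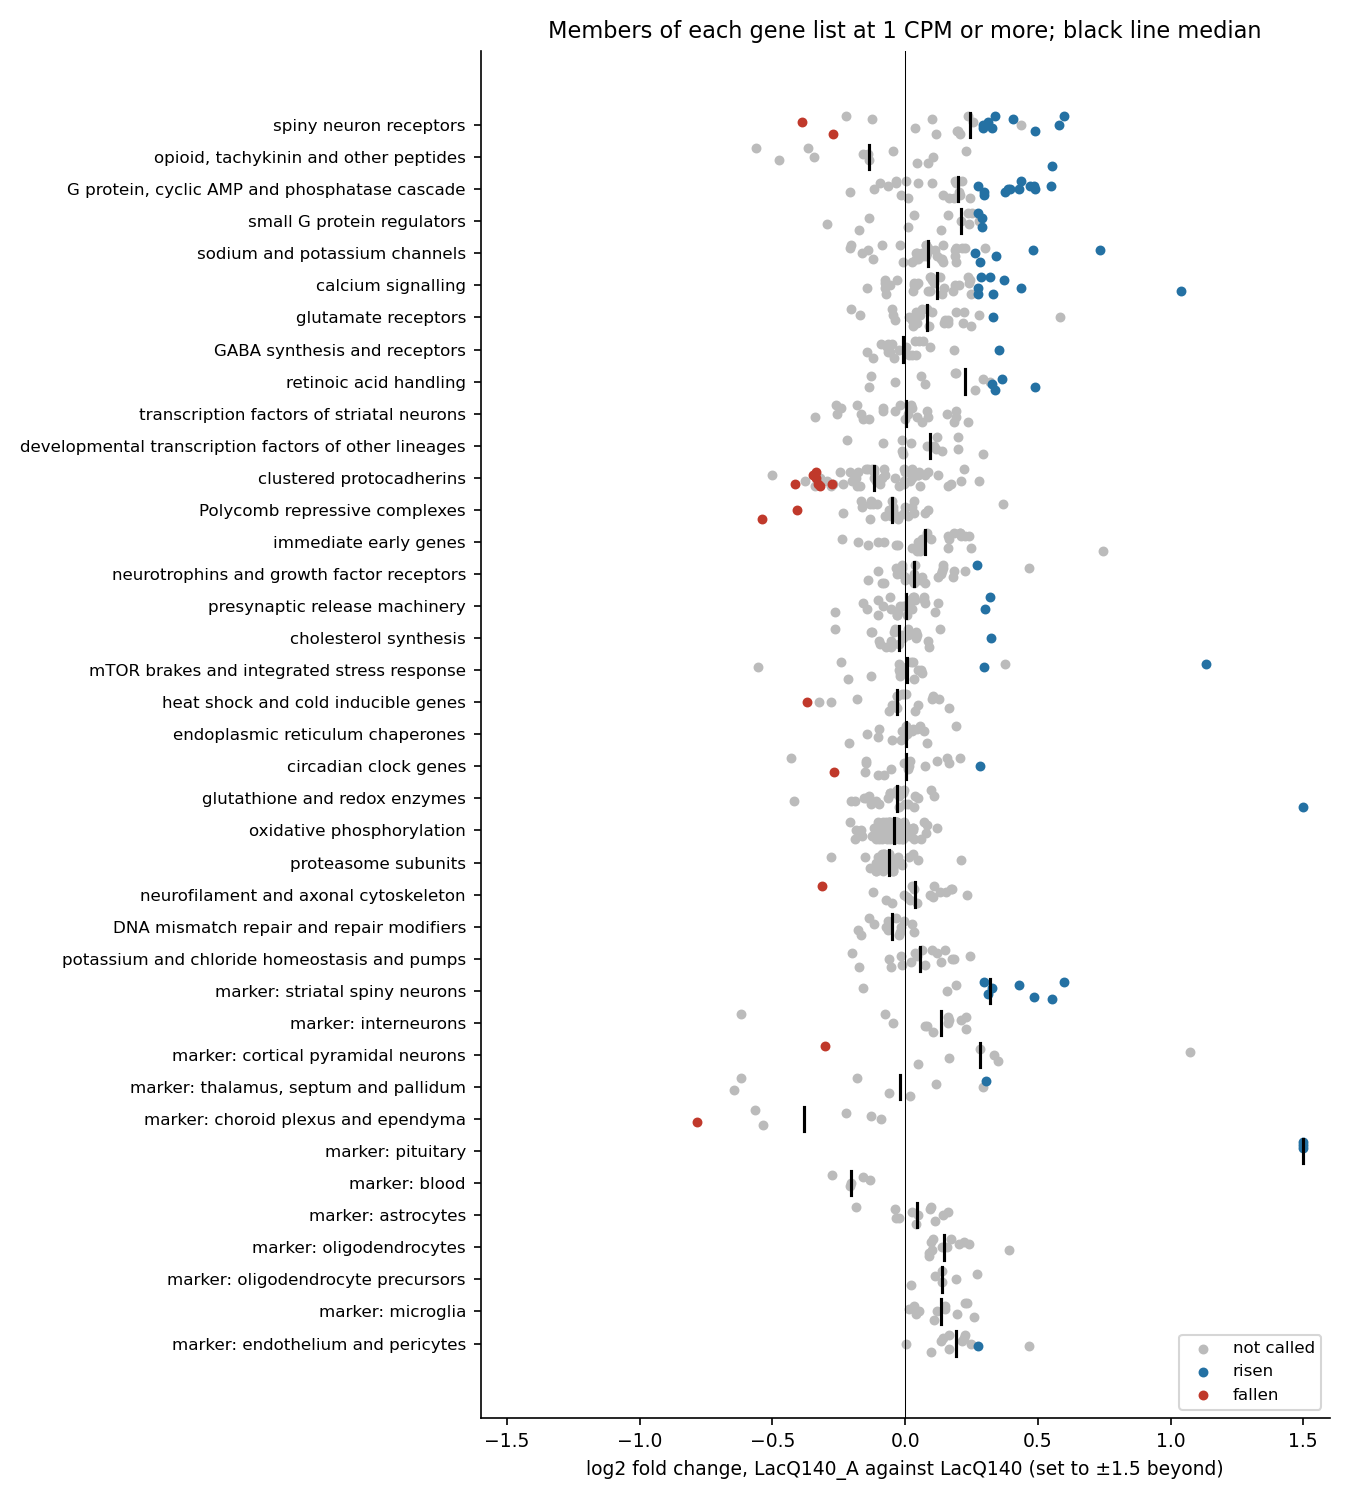
Each point is a gene of a list with a mean of at least 1 CPM, by its log2 fold change of LacQ140_A against LacQ140, blue where risen, red where fallen and grey where not called; black lines are medians. Medians lie at 0.24 for spiny neuron receptors, 0.20 for the cyclic AMP cascade and -0.12 for protocadherins, and the pituitary markers and Gpx6 are drawn at the right edge, where larger values were set.

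Markers of other cells changed in few genes. With edgeR no marker of interneurons (12 tested), blood (9), astrocytes (12), oligodendrocytes (12), their precursors (6) or microglia (12) was called, while 5, 0, 3, 4, 3 and 6 had an unadjusted p under 0.05. DESeq2 called 1 microglial marker, *Cx3cr1*, the fractalkine receptor, which had 0.26 in edgeR (adjusted p = 0.00833), just under the 1.2-fold bound, and was called in 14 of 29 alternatives. Without LacQ140_A F4, 1 oligodendrocyte marker was also called. The oligodendrocyte markers summed to 10640 to 13630 CPM in LacQ140_A and 10050 to 12630 in LacQ140, and all 12 had a log2 fold change above 0 (median 0.15). The same held for all 12 microglial (median 0.14), 12 vessel (0.19) and 6 precursor markers (0.14), and for 8 of 12 astrocyte markers (0.04). *Vtn*, of pericytes, rose by 0.28 as 1 of 12 vessel markers, a call lost in 5 of 29 alternatives. With 2.59% risen and 1.11% fallen among all genes of at least 1 CPM, single calls are no result about a marker list. The vessel markers summed to 486 to 590 CPM in LacQ140_A and 421 to 499 in LacQ140. *Gbx1*, of septum and pallidum, rose by 0.30 (edgeR adjusted p = 0.0496), as 1 of 10 markers of thalamus, septum and pallidum. Of the 8 with at least 1 CPM 4 lay above 0 (median -0.02). The 10 summed to 51.12 to 67.83 CPM in LacQ140_A (median 55.71) and 46.25 to 93.21 in LacQ140 (median 59.41). *Cux2*, of upper cortical layers, fell by 0.30 (edgeR adjusted p = 0.045), as 1 of 10 markers of cortical pyramidal neurons. These summed to 679 to 1388 CPM in LacQ140_A (median 931) and 644 to 967 in LacQ140 (median 712). The calls of *Gbx1* and *Cux2* were both lost under the replicate block and without most single libraries. The part of neighbouring tissue in the results was not tested.

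Pituitary hormone genes were among the largest rises, and these rested on LacQ140_A F1 and M1. *Prl*, the prolactin gene, stood at 74.3 CPM in LacQ140_A F1 and 14.7 in M1, at most 2.9 in the other 8 LacQ140_A mice and at most 0.756 in LacQ140. *Gh*, the growth hormone gene, stood at 37.9 CPM in F1 and 43.9 in M1, and at most 1.33 in the others of the group. *Pomc* reached 27.2 CPM in M1 and *Cga* 2.18. These 4 of 6 pituitary markers were called (log2 fold changes 6.07, 5.31, 1.72 and 5.42), and without F1 and M1, a choice made after seeing the data, none was (adjusted p from 0.168 to 0.835). *Pomc* was also lost without M1 alone, and DESeq2 called 2 of the 6, without *Pomc* and *Cga*. The summed pituitary markers were 2.53 to 118 CPM in LacQ140_A with a median of 3.49, against 1.83 to 4.34 in LacQ140. *Gm26723*, a noncoding RNA, likewise rested on 26 CPM in LacQ140_A F4. Without F1 and M1 the whole comparison held 469 called genes, of which 457 were among the 674, with 339 risen and 130 fallen. The spiny neuron receptors then held 8 risen and 1 fallen gene, the cyclic AMP cascade 11 risen and the protocadherins 6 fallen.

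LacQ140_A and LacQ140 differ in IPTG as well as in expression of the mutant allele, so the effect of IPTG was read from WT against WT + IPTG, which share no library with the comparison. Absence of IPTG changed 209 genes in WT mice (0.584%), with 73 higher and 136 lower. Of these genes 9 were also called in LacQ140_A against LacQ140, which is 1.34% of the 674 and 4.31% of the 209, and 6 of the 9 moved the same way. *Rarb* was 0.27 higher in WT than in WT + IPTG (adjusted p = 0.0212), *Fgf3* 0.49 (adjusted p = 0.00636) and the Notch ligand *Jag1* 0.41 (adjusted p = 0.0442), on the log2 scale. *Ildr2* and *Tma16* were lower in both comparisons, while the endothelial receptor *Adgrl4* rose by 0.27 in LacQ140_A and was 0.34 lower in WT than in WT + IPTG. The calls of *Tma16*, *Adgrl4* and *Ildr2* in LacQ140_A against LacQ140 were lost in 18, 11 and 2 of 29 alternatives, so the overlap of 9 genes rests in part on weak calls. The 381 risen genes at 1 CPM or more had a median log2 fold change of 0.09 in WT against WT + IPTG, with 309 (81.1%) above 0, where all genes had a median of 0.01 and 53.8% above 0. The fallen genes had a median of -0.02 and 43.3% above 0.

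The genotype by IPTG difference takes the IPTG effect of WT mice from that of Q140 mice, and 194 genes passed it (0.542%), 126 upward and 68 downward. DESeq2 called 304 (203 upward, 101 downward), and with the transcript length slope as a covariate 430 were called (227 upward, 203 downward). Of these 194 genes 5 were among the 32 of the cyclic AMP cascade and 2 among the 23 spiny neuron receptors, all upward. The 15 small G protein regulators and the 15 genes of retinoic acid handling held none. At 0.542% over all genes, that is no result about these lists, and lists were not compared by a test. *Scn4b* had a difference of 0.61 (adjusted p = 0.000803), *Penk* 0.43 (adjusted p = 0.000593), *Gpx6* 1.65 (adjusted p = 2.49e-06), *Ddit4l* 1.05 (adjusted p = 2.33e-06), *Sec14l3* 1.11 (adjusted p = 4.25e-06) and *Pde10a* 0.45 (adjusted p = 0.0349), on the log2 scale. *Slc4a11*, a membrane transporter, had 1.21 (adjusted p = 2.49e-06), having risen by 0.91 in LacQ140_A from 2.92 to 4.68 CPM to 5.91 to 8.81. *Sfmbt2* had -1.14 (adjusted p = 4.18e-05), *Cbx8* -0.83 (adjusted p = 0.000129), *Pcdhb9* -0.32 (adjusted p = 0.0179) and *Wt1* -3.13 (adjusted p = 0.0334). *Drd1* (0.19, adjusted p = 0.32), *Drd2* (0.33, adjusted p = 0.23), *Adora2a* (0.32, adjusted p = 0.19), *Adcy5* (0.29, adjusted p = 0.254) and *Rarb* (0.07, adjusted p = 0.914) did not pass this test, which has a larger error than the direct comparison.

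**Figure D5:**
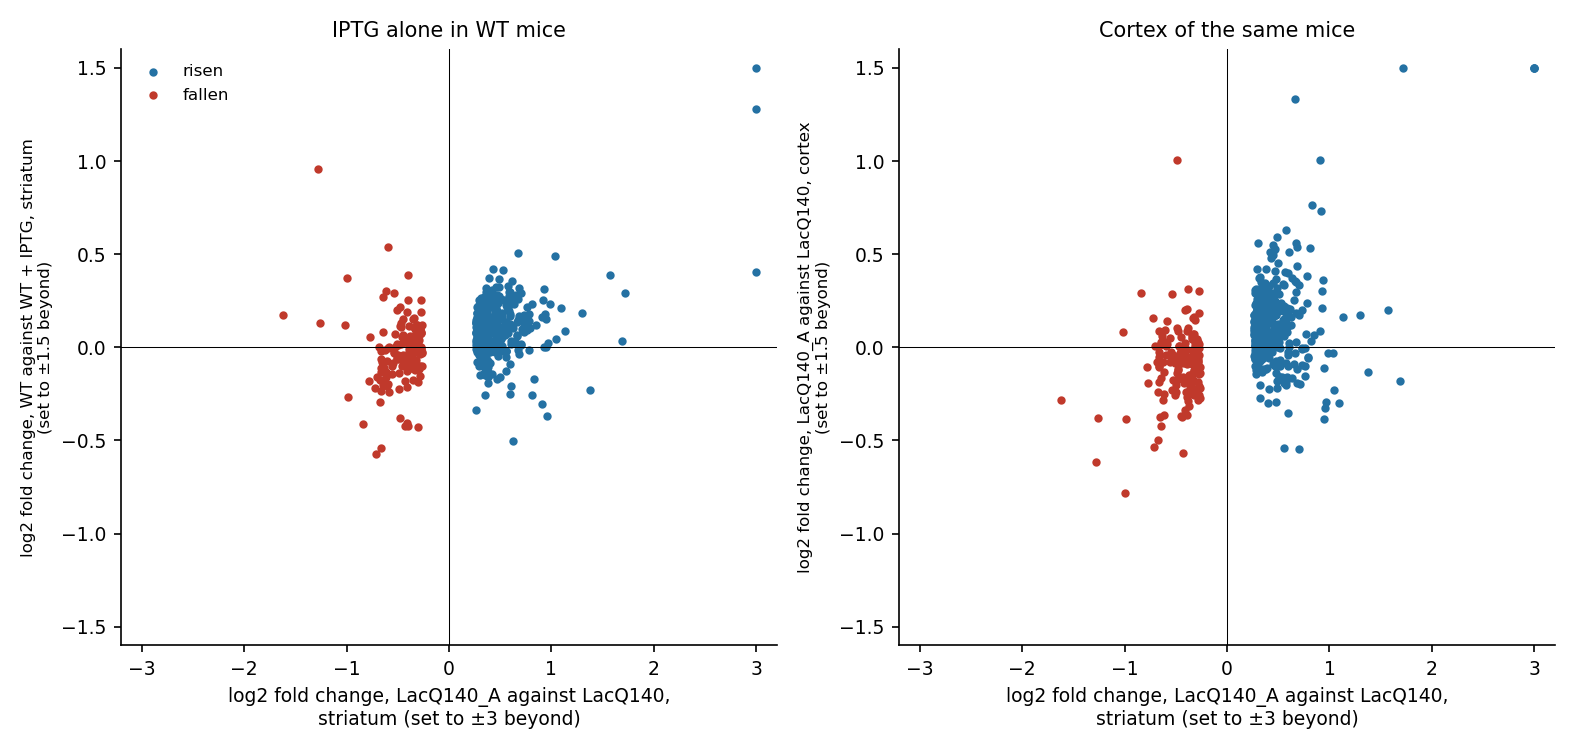
For called genes at 1 CPM or more, the log2 fold change in striatum (horizontal) is plotted against that of WT against WT + IPTG in striatum (left) and that of LacQ140_A against LacQ140 in the cortex of the same mice (right); risen genes are blue and fallen genes red. In the right plot 289 of 381 risen genes lie above 0.

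In the cortex of the same mice the same comparison called 3 genes, *Gh*, *Prl* and *Kank4*. The striatal calls of *Gh* and *Prl* rested on LacQ140_A F1 and M1, and the cortex was not refitted without those mice. In a fit with the mouse as a block, the striatal effect differed from the cortical effect in 90 of 37981 genes (0.237%), 69 with a larger log2 fold change in striatum and 21 with a smaller one. It held 147 genes (126 larger, 21 smaller) with filterByExpr, which drops genes of low counts, and 159 (121 larger, 38 smaller) with these 2 groups alone. *Mafa* differed by 1.38 (adjusted p = 1.90e-06), with 0.20 in cortex, *Ddit4l* by 0.98 (adjusted p = 1.55e-07), with 0.16 in cortex, and *Ankrd35* by 0.82 (adjusted p = 2.47e-07), with -0.10 in cortex. *Coch*, an extracellular matrix protein of the inner ear, differed by 0.75 (adjusted p = 3.33e-05), *Scn4b* by 0.54 (adjusted p = 0.0151), *Sfmbt2* by -1.12 (adjusted p = 6.76e-06) and *Wt1* by -3.17 (adjusted p = 1.34e-06). *Gpx6*, with -0.18 in cortex, did not pass (1.86, adjusted p = 0.233). The risen genes had a median log2 fold change of 0.11 in cortex, with 289 of 381 (75.9%) above 0, against 52.1% of all genes, and the fallen genes had -0.08, with 48 of 164 (29.3%) above 0.

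Females and males were compared within the same fit. The effect differed by sex in 1 gene (0.00279%), *Bcl6b*, a transcriptional repressor, while 1195 genes had an unadjusted p under 0.05, DESeq2 called 2 and filterByExpr left 0. *Bcl6b* had a median of 3.66 CPM in LacQ140 and 2.17 in LacQ140_A females, and of 1.43 and 3.06 in males (difference of log2 fold changes -1.82, SE 0.33, adjusted p = 0.0248). *Gpx6* went from 3.18 to 11.9 CPM in females and from 2.43 to 5.68 in males by medians, log2 fold changes of 1.97 and 1.26, whose difference did not pass (0.71, SE 0.26, adjusted p = 1). *Scn4b* had 0.77 in females and 0.69 in males, and *Penk* 0.52 and 0.58.

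Against LacQ140_2M, in which the allele was repressed from 2 months, LacQ140_A differed in 9 genes (0.0251%), 7 higher and 2 lower, with 2539 genes at an unadjusted p under 0.05. DESeq2 called 20 genes, 12 higher and 8 lower, 7 of them shared. *Gh*, *Prl*, *Cga* and *Gm26723* among these rest on the libraries named above. *Sec14l3* was higher in LacQ140_A by 0.54 (4.9 against 3.36 CPM, adjusted p = 0.0161), *Rasl10a* by 0.48 (adjusted p = 0.0206) and *4930539E08Rik* by 0.52 (adjusted p = 0.0359), while *Ripor2* was lower by a log2 fold change of -0.32 (adjusted p = 0.0161) and the nucleotide receptor *P2ry14* of -0.42 (adjusted p = 0.0264). *Rasl10a*, *P2ry14* and *4930539E08Rik* lay outside the rule for named genes and were chosen after their values were seen. *Scn4b* (1374 CPM in LacQ140_2M), *Penk* (1432), *Gpx6* (6.15) and *Ddit4l* (21) did not differ past the threshold, with log2 fold changes of 0.16, 0.10, 0.53 and 0.12.

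Against WT mice without IPTG, LacQ140_A differed in 326 genes (0.91%), 154 higher and 172 lower. *Penk*, *Ddit4l* and *Htt* were lower, as given above, as were *Arpp19* by a log2 fold change of -0.33 (adjusted p = 0.00726) and *Fgf3* by -0.40 (adjusted p = 0.0285). *Arpp21* had -0.25 (adjusted p = 0.00184) and *Drd1* -0.20 (adjusted p = 0.0377), both under the 1.2-fold bound. *Scn4b* (-0.08, adjusted p = 0.731), *Pde10a* (-0.15, adjusted p = 0.429), *Adcy5* (-0.06, adjusted p = 0.786), *Drd2* (-0.12, adjusted p = 0.627) and *Gpx6* (-0.46, adjusted p = 0.104) were not called against WT, which does not show that they were equal.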

How the data were processed

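The authors deposited expected counts per gene, estimated from NovaSeq reads. The aligner and quantifier are not given in the sources used here, and the submitters' processing notes name GRCm38. Of the nonzero values 33.29% were not whole, and all were rounded before testing. GENCODE M21 matched 54495 of 54532 gene IDs. Genes with at least 1 count over the libraries entered edgeR 4.0.16 (R 4.3.3), with TMM scaling, one quasi-likelihood fit over the 50 striatal libraries and Benjamini-Hochberg adjustment. A call needed an adjusted p under 0.05 and a 1.2-fold change. The tissue difference added the cortical libraries of the same mice, with the mouse as a block. All libraries carried one batch label. Named genes were the targeted gene, genes the study discusses, the largest calls at 1 CPM or more, the leading members of each list and the leading genes of each contrast. Other members and genes given with values were chosen after their values were seen. Members and lists were chosen with earlier results of these data known. The code was tested on simulated data. Over 90 pairs of libraries the chi-square per degree of freedom was at least 8.21, so none was a duplicate. Alternatives were filterByExpr, other size factors, DESeq2 1.42.0, a replicate block, sex or transcript length slope as covariates, fewer groups, no fold bound and leaving out libraries, of which the pairs named in the text were chosen after seeing the data. The 12-month table was not used here, and some genes are not reported here.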

Additional observations from a re-analysis of the deposited data

Results flagged for a closer look

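Among 200 sets of 10 mice (100 named genes in the 2 groups), 29 (14.5%) held a mouse whose gap to the next one was large against the range of the group by Dixon's critical value, which chance alone gives in about 1 in 20 groups. LacQ140_A F4 was that mouse in 10 of them. It was the highest of its group for *Drd2* (282 CPM), *Adora2a* (455), *Pde1b* (1580), *Rasd2* (896), *Kcnip2* (413), *Kcnh4* (49.7), *Rgs9* (627) and *Gm26723* (26.0), and the lowest for *Pcdhb16* (3.74) and *Slc4a10* (62.2). LacQ140_A F5 was the highest for *Ddit4l* (30.8 CPM), *Arpp21* (1560) and *Arpp19* (846), and M2 for *Camkk2* (202). LacQ140 F5 stood apart in 6 genes, lowest for *Arpp19* (353 CPM) and highest for *Gm47512* (7.19), *Gm41442* (11.9), *Maff* (13.5), *Herpud1* (76.5) and *Tma16* (27.2). LacQ140 F1 was the highest for *Tmem212* (4.87 CPM).

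Pituitary and hypothalamic hormone genes made up most of the rest. *Prl* stood at 74.3 CPM in LacQ140_A F1 and 0.756 in LacQ140 F2. *Pomc* stood at 27.2 CPM and *Cga* at 2.18 in LacQ140_A M1. LacQ140 M2 was the highest of its group for *Pomc* (2.37 CPM), *Gh* (1.3), *Cga* (0.041) and *Avp* (8.37).

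By tests of the difference itself, the effect of IPTG absence differed between Q140 and WT mice in 194 genes, the LacQ140_A effect differed between striatum and cortex in 90 genes and between the sexes in 1 gene, *Bcl6b*.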

How the results depend on the processing

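LacQ140_A against LacQ140 called 746 genes with filterByExpr, 683 with DESeq2 size factors, 713 with DESeq2, 700 with sex as a covariate, 786 with the transcript length slope as a covariate, 664 with these 2 groups alone and 855 with no fold bound, against 674. Leaving out 1 library gave 531 (without LacQ140 M4) to 746 (without LacQ140_A M5) genes, and 131 to 235 for the genotype by IPTG difference. That difference held 293 genes with filterByExpr, 304 with DESeq2 and 430 with the length slope, against 194. The tissue difference held 147 genes with filterByExpr and 159 with these 2 groups alone, against 90. The sex difference held 0 genes with filterByExpr and 2 with DESeq2, against 1, and LacQ140_2M 20 with DESeq2, against 9. Fewer genes enter under filterByExpr, and the cause of the other moves was not tested. With a replicate block the comparison called 636 genes, the genotype by IPTG difference 189, WT against WT + IPTG 176, LacQ140_2M 12 and WT 272. The samples share only a number, since same-numbered mice of the 2 groups correlated by -0.141 to 0.253 (2 of 10 mice were closest to their own number). Without LacQ140_A F4 and LacQ140 F5 the comparison called 566 genes, 403 up and 163 down. Of 102 named genes 86 were called, 50 of them under every setting run, and no called gene reversed. Both alleles are counted together, which limits what the *Htt* level shows.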
